A study of Mus musculus with 26 samples.

Results

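The genes described here encode proteins that assemble the cornified envelope of the outermost epidermis: the S100-fused proteins filaggrin (*Flg*), filaggrin 2 (*Flg2*), hornerin (*Hrnr*), repetin (*Rptn*) and trichohyalin (*Tchh*), the scaffold proteins loricrin (*Lor*) and involucrin (*Ivl*), and the transglutaminases *Tgm1*, *Tgm3* and *Tgm5*. They were chosen by symbol, 10 of the 56738 symbols in the count table, and all 10 were among the 16893 genes with a mean normalized count over 10 that were tested. Strand-specific mRNA libraries were sequenced from cultured primary keratinocytes, which make up most of the epidermis. The cells came from 13 C57BL/6NJ mice 2 days after birth, 5 wild-type (WT) and 8 *Pla2g4d*-deficient (KO). *Pla2g4d* encodes a phospholipase and transacylase of the group IV family. The KO line carries a CRISPR-Cas9 deletion in all cells of the animal and, per the methods of the study, was backcrossed on the C57BL/6NJ background before homozygous breeding. Cells of both genotypes grew for 4 days in EpiLife medium with growth supplement at 0.06 mM CaCl2. Cells of each mouse were then either left untreated (basal) or given 20 ng/ml IL17A together with 20 ng/ml TNFα over 24 h (cytokines), which gave 26 libraries in 4 groups.

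Keratinocytes that leave the basal layer switch on these genes in order. Involucrin and *Tgm1* appear early and form a first protein layer under the plasma membrane. Loricrin, the main reinforcing protein of the envelope, and profilaggrin, which is cut into filaggrin and bundles keratin filaments, follow in the granular layer. The S100-fused proteins share an N-terminal calcium-binding domain of the S100 type followed by long repeats. Transglutaminases join glutamine and lysine side chains of the scaffold proteins. Calcium drives the program, and cultures at low calcium hold cells that are mostly of the basal type. In whole cultures, fewer differentiating cells and less mRNA per cell cannot be told apart.

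In these libraries the basal layer keratins *Krt5* and *Krt14* were at 21170 ± 1589 and 16210 ± 484.9 CPM (counts scaled to library size, with TMM factors; SD, n = 5) in WT cells under basal conditions. The spinous layer keratins *Krt1* and *Krt10* were at 1521 ± 349.7 and 913.4 ± 199 CPM in the same group. Total counts ran from 42072745 to 78102858 per library, and the 10 genes took between 0.0552% and 0.229% of them. The summed level of 8 inner root sheath keratins, markers of the hair follicle layer for which trichohyalin is known, was below 1 CPM in each library, with a highest sum of 0.885 CPM. Melanocyte markers summed to 305.9 to 627.9 CPM, and none of the 6 was at 0 in any group. Fibroblast markers summed to 1.69 to 7.42 CPM, immune cell markers to 1.74 to 16.9 CPM and endothelial markers to 1.37 to 5.95 CPM. *Pla2g4d* counts cover the whole gene and do not check the deletion. Under basal conditions they came to 3.34 ± 1.36 CPM (WT) and 2.06 ± 0.716 CPM (KO), and in the presence of cytokines to 52.2 ± 14.9 and 38.1 ± 9.55 CPM. In each genotype 1 mouse often marked an end of its group. WT replicate 1 had the lowest value of its group for 9 of the 10 genes under basal conditions and for 10 of 10 with cytokines. KO replicate 8 had the highest value for 7 and 9 of the 10 genes. The summed level of 10 spinous layer genes behaved alike. In WT replicate 1 it was 4461 CPM under basal conditions and 1590 CPM with cytokines, against 5416 to 7312 and 2340 to 2524 CPM in the other WT mice. In KO replicate 8 it was 6387 and 2274 CPM, against 3594 to 5251 and 1409 to 1886 CPM in the other KO mice. What part this played in the results below was not tested beyond leaving out each mouse in turn.

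The 5 genes for S100-fused proteins lie side by side on the plus strand of mouse chromosome 3 (GRCm39), in the order *Flg2* (chr3:93104585-93128698), *Flg* (chr3:93180830-93200993), *Hrnr* (chr3:93227056-93240877), *Rptn* (chr3:93301006-93306749) and *Tchh* (chr3:93349637-93356384). *Ivl* (chr3:92478209-92481042) and *Lor* (chr3:91987578-91990449) lie on the minus strand of the same epidermal differentiation complex, with start coordinates at -626.4 and -1117 kb relative to that of *Flg2*. *Tgm1* lies on chromosome 14 (chr14:55937466-55951383, minus strand). *Tgm3* (chr2:129854257-129892319, plus strand) and *Tgm5* (chr2:120876592-120916322, minus strand) lie on the chromosome that carries *Pla2g4d* (chr2:120096076-120119678, minus strand), *Tgm5* at a distance of 756914 bp and *Tgm3* at 9734579 bp. *Lor* is named *Loricrin* in the annotation release used for these positions.

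The 250 bases directly before the annotated first exon are shown for 4 genes whose levels moved differently with cytokines: *Flg2* and *Lor*, which fell strongly, *Hrnr*, which fell less, and *Rptn*, which rose. The windows are chr3:93104335-93104584, chr3:93226806-93227055 and chr3:93300756-93301005 on the plus strand and chr3:91990450-91990699 on the minus strand of GRCm39, printed 5′ to 3′ in the direction of transcription, so that the last base adjoins the first exon. Capitals mark the AP-1 motif (TGANTCA) and the TATA motif (TATAAA), both searched on either strand.
Flg2: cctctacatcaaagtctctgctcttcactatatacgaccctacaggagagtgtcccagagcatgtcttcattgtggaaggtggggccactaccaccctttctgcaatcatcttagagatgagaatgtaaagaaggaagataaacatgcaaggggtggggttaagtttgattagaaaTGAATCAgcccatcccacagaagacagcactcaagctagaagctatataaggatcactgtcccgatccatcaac
Lor: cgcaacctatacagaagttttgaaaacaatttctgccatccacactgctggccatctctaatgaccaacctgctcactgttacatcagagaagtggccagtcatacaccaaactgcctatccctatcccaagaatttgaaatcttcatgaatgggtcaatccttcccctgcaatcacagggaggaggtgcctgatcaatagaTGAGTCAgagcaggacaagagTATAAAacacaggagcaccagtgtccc
Hrnr: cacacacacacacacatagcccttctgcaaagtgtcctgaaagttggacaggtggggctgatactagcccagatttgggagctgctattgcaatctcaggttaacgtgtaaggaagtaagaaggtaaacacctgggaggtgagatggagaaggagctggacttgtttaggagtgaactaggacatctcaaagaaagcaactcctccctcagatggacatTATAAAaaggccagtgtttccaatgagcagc
Rptn: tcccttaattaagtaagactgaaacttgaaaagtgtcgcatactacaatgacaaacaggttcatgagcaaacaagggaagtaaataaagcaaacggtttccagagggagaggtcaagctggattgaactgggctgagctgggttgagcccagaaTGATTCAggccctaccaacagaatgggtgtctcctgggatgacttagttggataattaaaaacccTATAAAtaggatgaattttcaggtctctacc
The AP-1 motif stood in the windows of *Flg*, *Flg2*, *Rptn*, *Lor* and *Ivl*, 5 of the 10 genes, against 6.2% of the windows of 21738 protein-coding genes. Its first base lay 74 bases before the start in *Flg2*, 48 in *Lor* and 96 in *Rptn*. The TATA motif was found in 6 of the 10 windows (*Flg*, *Hrnr*, *Rptn*, *Lor*, *Ivl* and *Tgm3*) and in 11.9% of all windows. The other motifs searched were that of C/EBP factors (TTGCNNAA; 4 of 10, 9.3% of all windows), that of KLF factors (CACCC; 6 of 10, 52.9%) and that of grainyhead-like factors (AACNNGTT; 1 of 10, 3.7%). The windows that hold the AP-1 motif thus include those of genes that fell and of the gene that rose. For *Flg*, which is annotated in fragments, the window was set by the transcript that spans most of the gene and overlaps another annotated start, and that of *Tgm1* lies downstream of the start of another transcript. Their matches therefore depend on the start chosen. These counts describe letters in a window and not binding of a factor.

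Per kb of annotated exon, *Lor* had the highest level of the 10 genes in WT cells under basal conditions, 234.1 ± 87 CPM per kb (SD, n = 5, range 151.2 to 365.2), and no other gene reached this range. *Tchh* followed with 67.6 ± 19.6, *Rptn* with 53.4 ± 17.1 and *Tgm1* with 34.4 ± 7.89 CPM per kb, each overlapping in range with the next. *Ivl* stood at 21.2 ± 6.14, *Hrnr* at 13.8 ± 4.72, *Flg* at 10.3 ± 2.5 and *Tgm5* at 6.05 ± 1.37 CPM per kb. *Ivl* and *Hrnr* overlapped, as did *Hrnr* and *Flg*, whereas *Flg* and *Tgm5* did not. *Tgm3* was at 4.16 ± 0.368 CPM per kb and *Flg2* was last, at 0.963 ± 0.294. Of the stretches of 150 bases in the exons, 48.4% in *Flg*, 46.6% in *Flg2* and 67.4% in *Hrnr* occur more than once in the genome, against 0.2% in *Tchh* and 0% in each of the other 6 genes. The levels of the 3 repeated genes, and differences between them and other genes, are therefore uncertain where the counting dropped or split reads with several positions. The exon length of *Flg* is uncertain as well, because all its fragments were joined. Over the exons of the transcript that spans most of the gene alone, its level was 13.4 ± 3.25 CPM per kb (range 10.3 to 17.9), still without overlap with *Tgm5*. The annotation also labels *Flg* and *Flg2* as affected by errors of the reference genome. Changes of 1 gene between groups do not need its length.

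**Figure D1:**
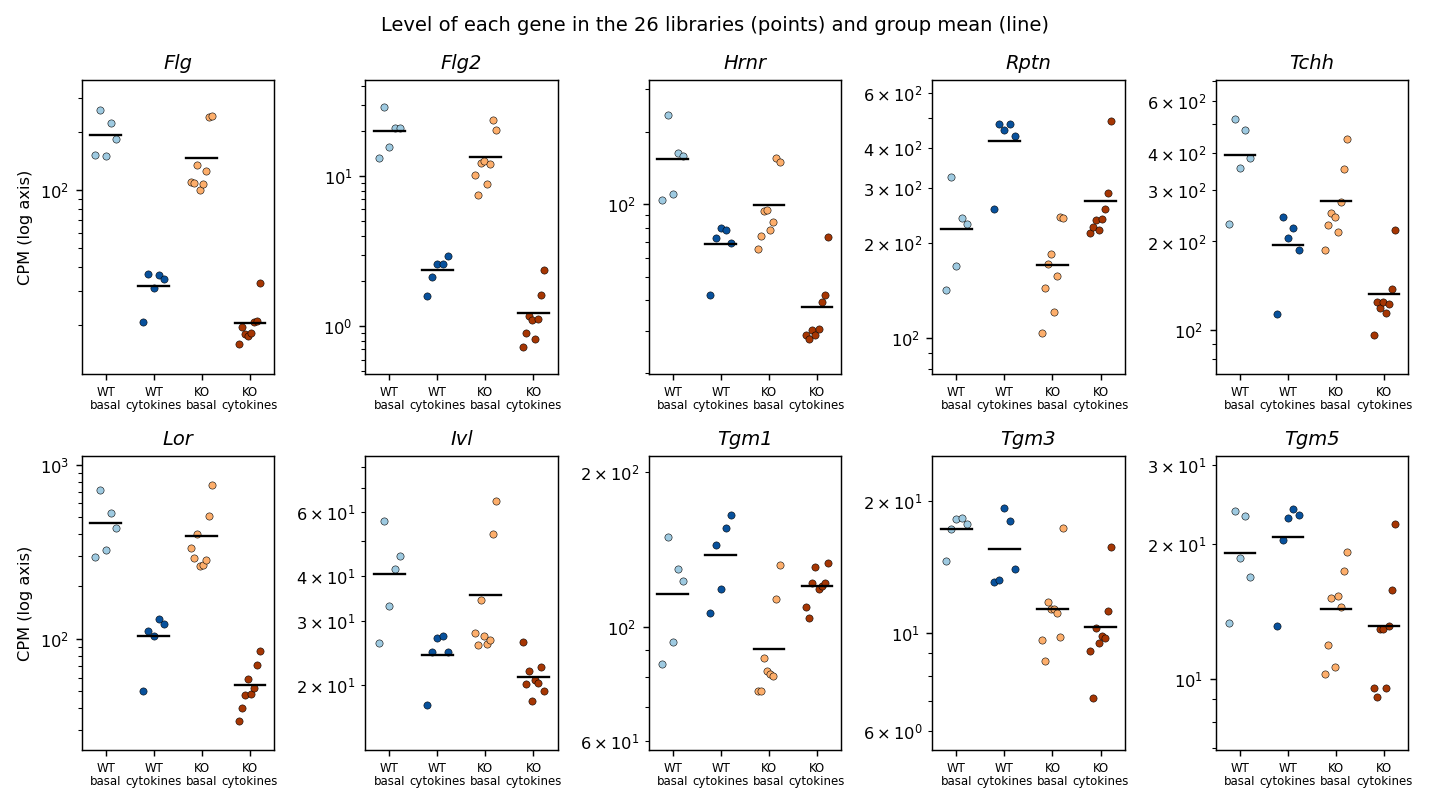
Levels of the 10 genes in CPM (log axis, a separate range for each gene) in WT and KO cells under basal conditions and with IL17A and TNFα (cytokines). Each point is a library (5 per WT group, 8 per KO group) and the line is the group mean. The basal and cytokine groups of *Flg*, *Flg2* and *Lor* do not overlap in either genotype, and WT replicate 1 (leftmost point of its groups) and KO replicate 8 (rightmost point) often mark the ends of their groups.

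Cytokines lowered the S100-fused genes with 1 exception. In WT cells *Flg*, *Flg2*, *Hrnr* and *Tchh* fell and *Rptn* rose, and the same was found in KO cells. *Flg* was at 152.5, 259.4, 149.7, 222.4 and 184.7 CPM in the 5 WT mice under basal conditions and at 20.6, 36.5, 31, 36.3 and 34.4 CPM with cytokines. In the 8 KO mice it ran from 99.7 to 243.6 CPM (median 117.7) under basal conditions and from 15.9 to 32.9 CPM (median 18.7) with cytokines. Each library with cytokines lay below each basal library of its genotype. The log2 fold change was -2.61 (SE 0.25, adjusted p = 1.18e-09, edgeR quasi-likelihood F test, adjusted after Benjamini and Hochberg over all genes tested) in WT and -2.84 (SE 0.20, adjusted p = 1.99e-12) in KO cells.

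*Flg2*, a filaggrin-like protein of the upper epidermis, showed the steepest fall of the 10 genes in both genotypes. In WT mice it went from 13.3, 29.1, 15.7, 21 and 21.1 CPM to 1.58, 2.11, 2.58, 2.6 and 2.92 CPM. In KO mice it went from 7.5 to 23.8 CPM (median 12.1) down to 0.722 to 2.36 CPM (median 1.11). Again no library with cytokines reached the basal range. The edgeR log2 fold changes were -3.09 (SE 0.30, adjusted p = 2.99e-09) and -3.44 (SE 0.25, adjusted p = 5.55e-12), an 8.51-fold fall in WT.

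*Hrnr*, which codes for a repeat protein related to filaggrin, was at 103.9, 235.3, 110.2, 163.5 and 159.1 CPM in WT cells under basal conditions and at 42.2, 72.9, 79.8, 78.6 and 69.5 CPM with cytokines. KO cells went from 65.5 to 155 CPM (median 89.5) to 27.6 to 72.9 CPM (median 30.3). The WT groups did not overlap, and in KO cells 7 of the 8 libraries with cytokines lay below all basal ones, replicate 8 being the exception. *Hrnr* changed by -1.17 (SE 0.27, adjusted p = 0.000896) in WT and by -1.41 (SE 0.21, adjusted p = 4.47e-06) in KO cells on the log2 scale by the same edgeR test. *Tchh*, best known from the hair follicle and also a substrate of transglutaminases, went from 229.2 to 520.6 CPM (median 383.6) to 113.5 to 242.9 CPM (median 205.9) in WT cells. In KO cells it went from 186.6 to 446.7 CPM (median 246.5) to 96.4 to 219.4 CPM (median 123.7). Its log2 fold changes were -1.02 (SE 0.23, adjusted p = 0.000889) and -1.05 (SE 0.18, adjusted p = 3.64e-05), with 1 library of each genotype inside the basal range.

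*Rptn*, a granular layer protein of the envelope, went the other way. WT libraries stood at 141.8, 324.6, 169.4, 240.6 and 229.6 CPM under basal conditions and at 256.9, 476.7, 458.9, 479.1 and 439.1 CPM with cytokines. All but replicate 1 lay above the highest basal library. KO libraries ran from 103.9 to 242.9 CPM (median 164.8) and from 215.7 to 488.4 CPM (median 238.6), with 3 of 8 above the basal range. The log2 fold change was 0.93 (SE 0.24, adjusted p = 0.00301) in WT and 0.67 (SE 0.19, adjusted p = 0.0069) in KO cells by edgeR's test, and *Rptn* rose within 13 of 13 mice. Without KO replicate 8 the change in KO cells was not called, because its fold was then under 1.5.

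Among the scaffold genes, *Lor* changed far more than *Ivl*. *Lor* was at 297, 717.3, 323, 528.2 and 433.6 CPM in WT cells under basal conditions and at 50, 111.7, 103.6, 129.7 and 121.6 CPM with cytokines. In KO cells it ran from 261.3 to 768.2 CPM (median 310.6) under basal conditions and from 33.7 to 85.5 CPM (median 50.4) with cytokines. The groups were apart in both genotypes, with log2 fold changes of -2.15 (SE 0.30, edgeR adjusted p = 1.36e-06) in WT and -2.83 (SE 0.24, adjusted p = 1.7e-10) in KO cells. *Ivl* went from 26.1, 56.9, 33, 41.8 and 45.5 CPM to 17.7, 24.7, 27, 27.3 and 24.7 CPM in WT cells. In KO cells it went from 25.9 to 64.4 CPM (median 27.5) to 18.1 to 26.4 CPM (median 20.5), and 1 library with cytokines lay inside the basal range. Both log2 fold changes of *Ivl* were -0.75 (SE 0.22, adjusted p = 0.00938 in WT; SE 0.17, adjusted p = 0.00114 in KO). In KO cells this call, too, was lost without KO replicate 8.

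The transglutaminases were not called with cytokines in either genotype. *Tgm1*, the membrane-bound enzyme of the envelope, was at 84.8, 149.2, 93.4, 129.8 and 122.6 CPM in WT cells under basal conditions and at 106.3, 144.2, 118.6, 155.7 and 165.2 CPM with cytokines, with overlapping groups. The log2 fold change was 0.25 (95% interval -0.04 to 0.54, adjusted p = 0.215) in WT and 0.40 (0.17 to 0.63, adjusted p = 0.0088) in KO cells in the edgeR fit. In KO cells *Tgm1* thus passed the test on p, but its 1.32-fold rise was under the limit of 1.5. It was higher with cytokines within 4 of 5 WT and 8 of 8 KO mice. *Tgm3*, which acts on trichohyalin and other envelope proteins once cut by a protease, had log2 fold changes of -0.15 (-0.48 to 0.18) and -0.14 (-0.40 to 0.12). *Tgm5*, an enzyme whose loss causes peeling of the skin, had 0.11 (-0.30 to 0.53) and -0.12 (-0.45 to 0.21). The 4 intervals of *Tgm3* and *Tgm5* lie within a 1.5-fold change in either direction.

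Counted together, 7 of the 10 genes were called in each genotype, 6 lower and 1 higher. Of all genes tested, 5.26% were called lower and 8.65% higher in WT, and 4.55% lower and 6.33% higher in KO cells. The median log2 fold change of the 10 genes was -0.88 in WT and -0.90 in KO cells, beside 0.014 and 0.005 over all genes tested. Basal and cytokine groups were without overlap for 4 of the 10 genes in WT (*Flg*, *Flg2*, *Hrnr* and *Lor*) and for 3 in KO cells (*Flg*, *Flg2* and *Lor*), where 20.5% and 11.8% of all genes showed no overlap. *Krt1* and *Krt10* fell as well, with log2 fold changes of -4.34 and -5.00 in WT and -5.01 and -5.64 in KO cells, and the summed spinous layer markers had medians of 6012 (basal) and 2362 CPM (cytokines) for WT, and 3989 and 1597 CPM for KO cells. *Krt5* and *Krt14* changed by -0.31 and -0.46 in WT cells, under the fold limit. The part of a changed share of differentiating cells in these results was not tested.

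**Figure D2:**
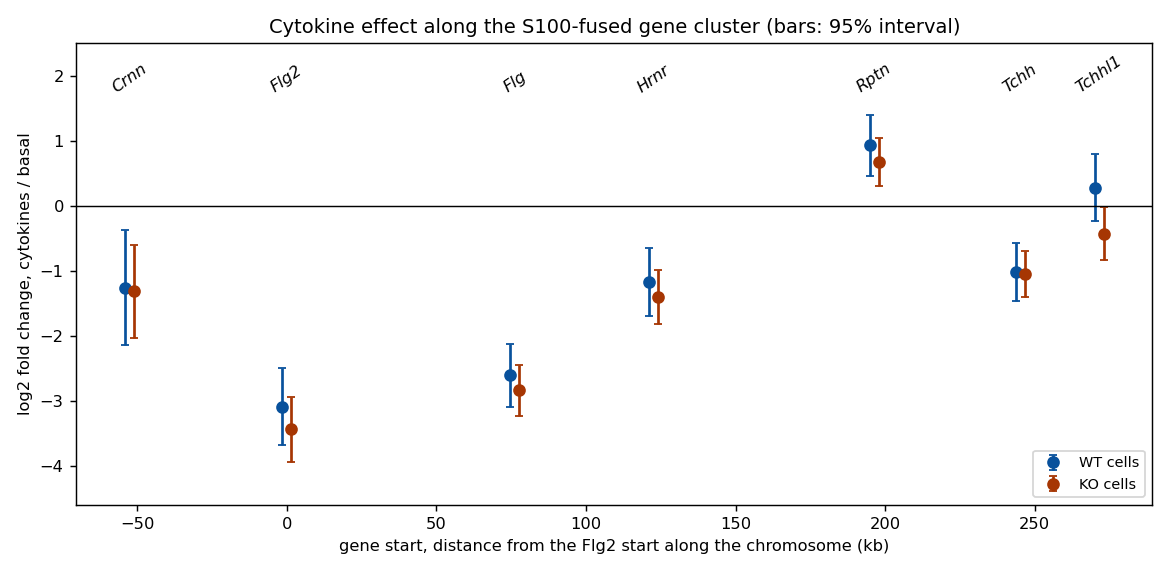
Log2 fold change with cytokines (vertical axis, with 95% intervals) of the neighbouring S100-fused genes against the distance of the gene start from that of *Flg2* in kb (horizontal axis), in WT and KO cells. *Rptn*, 196.4 kb from *Flg2*, is above 0 between *Hrnr* and *Tchh*, which are both below 0.

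Along the gene cluster the fall shrank from *Flg2* over *Flg* and *Hrnr* to *Tchh* in both genotypes, with *Rptn* as an exception. A trend with position was not tested. *Crnn* (cornulin), 52.5 kb before *Flg2*, fell by 1.26 in WT and by 1.31 in KO cells on the log2 scale (edgeR adjusted p = 0.0338 and 0.00602), from a low level of 0.772 ± 0.226 CPM in WT cells. Its fall was smaller than that of *Flg2*, outside the order above. *Rptn* rose although it lies between *Hrnr* and *Tchh*, which fell. *Tchhl1* (trichohyalin-like 1), next after *Tchh*, had log2 fold changes of 0.28 in WT (adjusted p = 0.467) and -0.43 in KO cells (adjusted p = 0.132) and was not called.

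The make-up of the 10 genes' summed level per kb of exon changed with cytokines. The sum includes *Flg*, *Flg2* and *Hrnr*, whose levels are uncertain for the reasons given above. All shares are therefore uncertain beyond the SDs over libraries. *Lor* made up 52 ± 2.76% of the sum in WT and 54.6 ± 4.77% in KO cells under basal conditions, and 19.9 ± 2.49% and 15.8 ± 2.21% with cytokines (SD over libraries). *Rptn* went from 12 ± 0.459% to 39.2 ± 1.38% in WT and from 11.9 ± 2.27% to 37.2 ± 3.16% in KO cells, and took the first place. *Tgm1* went from 7.91 ± 0.756% to 16.1 ± 2.56% in WT and from 7.84 ± 0.977% to 21 ± 2.93% in KO cells. Ranges before and after treatment did not overlap for any of these 3 genes in either genotype. *Tchh* held a share of 12.8% to 15.3% in all 4 groups. A share can rise without a rise of the gene itself, as the sum fell from 289.3 to 654.7 CPM per kb over WT basal libraries to 159.9 to 301.2 CPM per kb with cytokines. In KO cells the sum went from 260.4 to 636.1 to 140.6 to 267.7 CPM per kb.

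**Figure D3:**
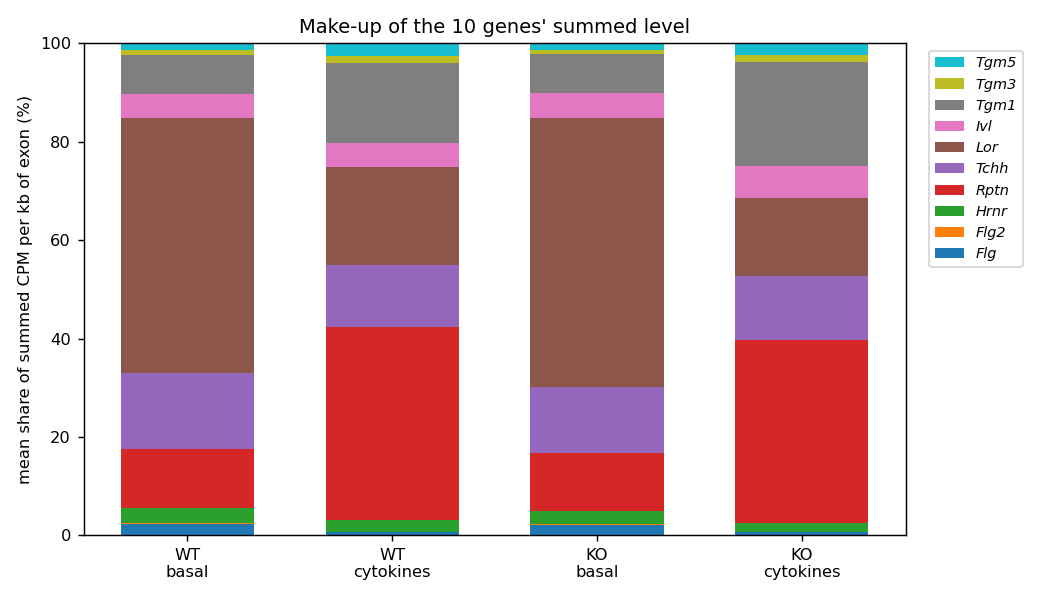
Mean share of each of the 10 genes in their summed CPM per kb of exon (vertical axis, percent) in the 4 groups, stacked. *Lor* is the widest band under basal conditions and *Rptn* with cytokines, in both genotypes. The shares depend on the levels of *Flg*, *Flg2* and *Hrnr*, which are uncertain.

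Comparing genotypes shows how cells of KO mice differed from those of WT mice in these genes. Per the methods the KO line was bred homozygously, and the sources used here name neither litters nor culture batches. Differences by genotype can therefore not be told apart from differences of litter or culture. Under basal conditions all 10 genes had lower mean levels in KO than in WT cells, and 2 were called, *Tgm3* and *Hrnr*. *Tgm3* was at 14.6, 17.3, 18.2, 18.4 and 17.8 CPM in the WT mice and ran from 8.63 to 17.4 CPM (median 11.2) in the KO mice. Of the KO libraries, 7 lay below all WT libraries and replicate 8 lay among them. The log2 fold change was -0.60 (SE 0.15, edgeR adjusted p = 0.00904). *Hrnr*, with the values given above, had -0.63 (SE 0.23, adjusted p = 0.0865), and 6 of 8 KO values lay under the WT range. *Tgm1* passed the test on p at a smaller size, -0.36 (SE 0.13, adjusted p = 0.0916). *Tchh* had -0.52 (adjusted p = 0.111), *Flg2* -0.58 (adjusted p = 0.149), *Tgm5* -0.42 (adjusted p = 0.183) and *Flg* -0.41 (adjusted p = 0.242). *Rptn* at -0.37, *Lor* at -0.24 and *Ivl* at -0.19 had adjusted p of 0.318, 0.642 and 0.624. Of all genes tested 1.07% were called lower and 1.61% higher in KO cells, and 6.06% passed the test on p alone with a lower level, as 3 of the 10 genes did. The median log2 fold change was -0.42 over the 10 genes and 0 over all genes. Other genes of the same layers shifted alike. Of 41 other envelope genes 37 were below 0 (median -0.254), as were 9 of 9 tested spinous layer genes (median -0.5).

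The call of *Tgm3* was lost without WT replicate 3 or 4 or KO replicate 1, 2 or 7, when its fold fell under 1.5 while its adjusted p stayed at or below 0.0306. That of *Hrnr* was lost in 9 of the 13 fits that left out 1 mouse. Without WT replicate 1, 4 genes were called (*Hrnr*, *Tgm3*, *Flg2* and *Tchh*), and without KO replicate 8 the same 4. In limma voom with the mouse as a replicate block 3 genes were called, *Flg2* being added (adjusted p = 0.0263), and voom without the block called the same 3 (adjusted p = 0.03 for *Flg2*). The spinous layer markers were lower in KO cells too. Of 9 tested, 4 were called lower and 0 higher, *Krt1* with -0.75 (edgeR adjusted p = 0.00776), and their summed level had a median of 6012 CPM for WT and 3989 CPM for KO cells. The part of this shift in the results on the 10 genes was not tested.

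In the presence of cytokines the 10 genes were again lower on average in KO cells, and 5 were called: *Flg2*, *Hrnr*, *Lor*, *Tgm3* and *Tgm5*. *Flg2* stood at 1.58 to 2.92 CPM in WT cells. The KO range was 0.722 to 2.36 CPM, where 6 of 8 lay under the WT range, and the gene had a log2 fold change of -0.93 (SE 0.28, edgeR adjusted p = 0.09). *Hrnr* stood at 42.2 to 79.8 CPM in WT cells. Its KO range was 27.6 to 72.9 CPM, where 7 of 8 lay under the WT range, and it had -0.87 (SE 0.23, adjusted p = 0.0638). *Lor* covered 50 to 129.7 CPM in WT cells and 33.7 to 85.5 CPM in KO cells. The log2 fold change was -0.92 (SE 0.26, adjusted p = 0.0728), although WT replicate 1 lay inside the KO range. The other 4 WT libraries, from 103.6 CPM upwards, were above all 8 KO libraries.

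Both less abundant transglutaminases were lower too. *Tgm3* was at 13.1, 13.2, 19.3, 18 and 14 CPM in WT cells, and KO values ran from 7.12 to 15.8 CPM (median 9.82), a log2 fold change of -0.59 (SE 0.15, adjusted p = 0.0503 by edgeR). *Tgm5* was at 13.1, 20.4, 22.8, 24 and 23.2 CPM in WT cells, and KO values ran from 9.09 to 22.1 CPM (median 12.9), a log2 fold change of -0.66 (SE 0.19, adjusted p = 0.0806). KO replicate 8 was the highest KO library for both. *Flg* (-0.64, adjusted p = 0.134), *Rptn* (-0.64, adjusted p = 0.131) and *Tchh* (-0.55, adjusted p = 0.177) were not called. *Ivl* had -0.20 (95% interval -0.58 to 0.19) and *Tgm1* had -0.20 (-0.46 to 0.06).

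Of all genes tested, 0.556% were called lower and 0.148% higher in KO cells with cytokines, and 1.62% passed the test on p alone with a lower level, as 5 of the 10 genes did. WT and KO groups overlapped for all 10 genes, and 0.432% of all genes had KO libraries that were all below the WT libraries. The median log2 fold change was -0.64 over the 10 genes and -0.01 over all genes. The shift was not particular to the 10 genes. Of 41 other envelope genes 41 were below 0 (median -0.601), as were 8 of 9 tested spinous layer genes (median -0.879). The spinous layer keratins *Krt1* (-1.42, adjusted p = 0.000146) and *Krt10* (-1.15, adjusted p = 0.0226) were lower in KO cells as well, whereas *Krt5* (0.04, adjusted p = 0.793) and *Krt14* (-0.06) were not called. Of 10 basal layer genes 9 were above 0 and 1 was below (median 0.084). On p alone 2 of them passed with a higher level, and 0 were called. Summed melanocyte markers were at 333.2 to 475.1 CPM (WT, median 460.9) and 305.9 to 404.1 CPM (KO, median 331.1) with cytokines. Of these 6 markers 5 were below 0 and 1 was above (median -0.408). On p alone 4 of them passed with a lower level in KO cells, and 0 were called. The part of these shifts in the results on the 10 genes was not tested.

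The count of 5 depended on single mice. Without WT replicate 1 or without KO replicate 8, 8 genes were called, *Flg*, *Rptn* and *Tchh* being added in both cases, with adjusted p for these 8 genes from 0.0012 (*Tgm3* without KO replicate 8) to 0.0268 (*Flg* without WT replicate 1). Without WT replicate 3 or 4 or KO replicate 1, 2, 5 or 6 no gene was called, and without WT replicate 2 or 5 or KO replicate 3 or 4 the count was 1. In limma voom with the mouse as a replicate block 3 genes were called, *Hrnr* (adjusted p = 0.0586), *Tgm5* (adjusted p = 0.0732) and *Rptn* (adjusted p = 0.0884). Voom without the block called 2, *Hrnr* (adjusted p = 0.0772) and *Tgm5* (adjusted p = 0.0984). The direction of all 10 genes was kept in each of these fits.

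**Figure D4:**
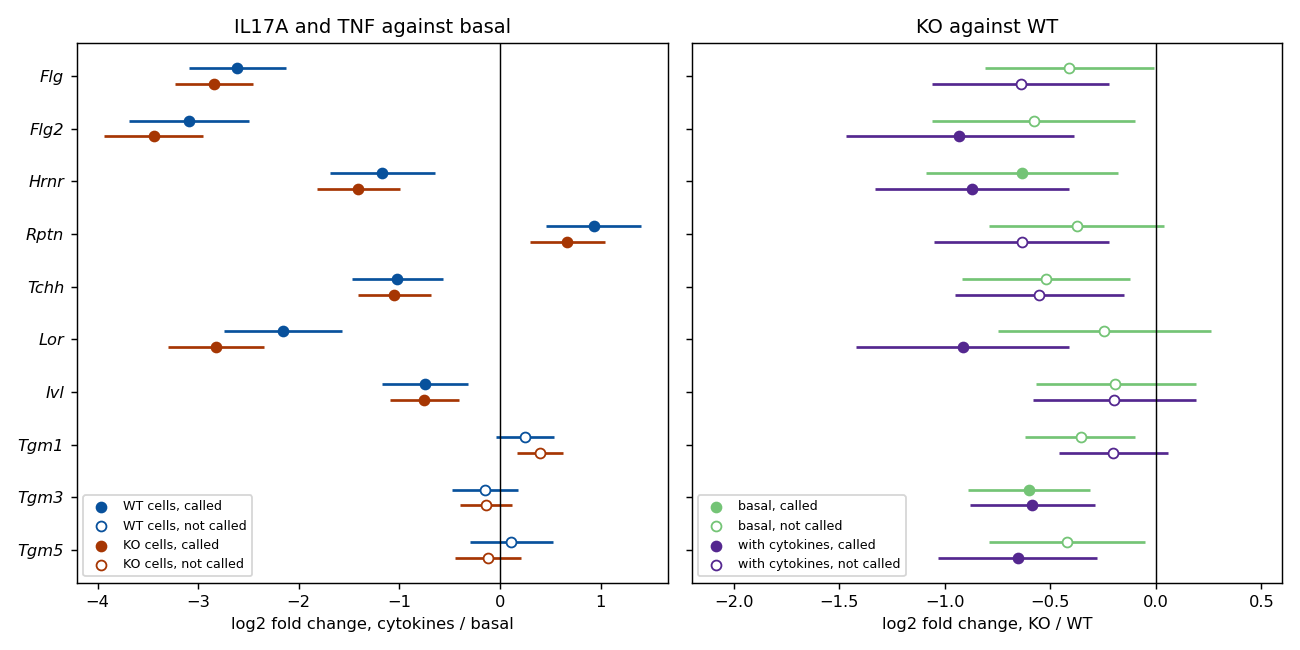
Log2 fold changes of the 10 genes with 95% intervals, on the left cytokines against basal in WT and KO cells, on the right KO against WT under basal conditions and with cytokines. Filled points were called (adjusted p under 0.1 and fold over 1.5). On the right all 20 points are below 0.

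Whether the response to cytokines differed between genotypes was asked with the interaction of genotype and treatment. None of the 10 genes was called by edgeR, which called 0.184% of all genes for a lower and 0.0355% for a higher response in KO cells. None of the 10 had an unadjusted p under 0.05 in that test, and 0 were called by DESeq2. *Lor* came nearest, with a difference of -0.67 on the log2 scale (95% interval -1.39 to 0.05, unadjusted p = 0.0791, adjusted p = 0.607). Cells of the same mouse gave both libraries, and the change within each mouse was therefore compared as well. *Lor* changed by -2.57, -2.68, -1.64, -2.03 and -1.83 in the 5 WT mice and by -3.3, -2.86, -3.06, -2.14, -2.46, -2.44, -2.84 and -3.17 in the 8 KO mice. Of the KO mice, 5 fell further than all WT mice. The mean difference was -0.63, with p = 0.0256 in an exact two-sided permutation test over 5 and 8 mice, not adjusted for the 10 genes compared. This p rose over 0.05 without WT replicate 3 (difference -0.50) or WT replicate 5 (-0.55). With the mouse as a replicate block in the edgeR fit over all genes, *Lor* was called (adjusted p = 0.0969).

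*Flg*, *Flg2*, *Hrnr*, *Tchh*, *Lor* and *Ivl* fell within 13 of 13 mice. For *Flg2* the mean change was -3.05 ± 0.441 in WT (SD, n = 5) and -3.43 ± 0.29 in KO mice (SD, n = 8), with p = 0.0761 in the exact permutation test. The means of *Tchh* were -1.01 ± 0.131 and -1.04 ± 0.154 (exact p = 0.753). For *Tgm1* 6 of 8 KO mice rose more than all WT mice, but the other 2 rose by 0.013 and 0.101 and the exact p was 0.215. The exact p of the other 6 genes lay between 0.141 for *Tgm5* and 0.884 for *Ivl*.

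**Figure D5:**
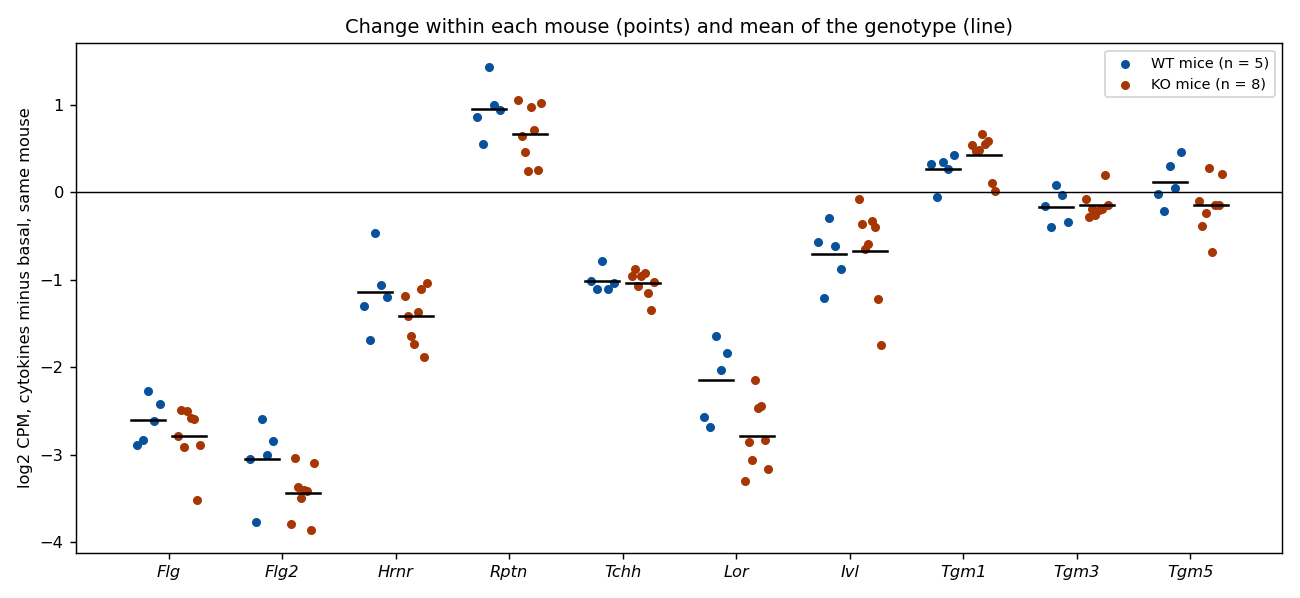
Change of each of the 10 genes within a mouse, in log2 CPM with cytokines minus basal (vertical axis), for 5 WT and 8 KO mice (points) with the mean of each genotype (line). For *Lor* 5 of the 8 KO mice lie below all WT mice, and each mouse is above 0 for *Rptn*.

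Among libraries of the same group the 10 genes varied together. After subtracting group means from the log2 CPM of the 26 libraries, *Hrnr* and *Rptn* had r = 0.968, *Rptn* and *Tchh* 0.931 and *Flg2* and *Hrnr* 0.913, so that *Rptn* went with the genes from which it parted under cytokines. The lowest of the pairs was *Ivl* and *Tgm3* with 0.41. Correlations with *Krt10* reached at most 0.749, for *Tchh*. These libraries share mice, depth and normalization, and the values are given as a description. The genes most like the mean of the 10 over all 26 libraries were *Acer1* (r = 0.97), *Tuba8*, *Dsg1b*, *Klk7* and *Krt6b* (r = 0.965). After subtraction of group means they were *Calm4* (r = 0.965), *Eps8l1*, *Casp14*, which codes for a protease that acts on filaggrin, *Sdr9c7* and *Tuba8* (r = 0.953).

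Other members of both families were measured too. Of *Crnn*, *Tchhl1*, *Tgm2*, *Tgm4*, *Tgm6*, *Tgm7* and *F13a1*, 6 passed the filter. With cytokines *Tgm6* rose from 0.183 ± 0.19 to 2.05 ± 0.846 CPM in WT cells and *Crnn* fell, and the others were not called in either genotype. *Tgm2*, the tissue transglutaminase, was higher in KO cells, with basal ranges of 1.62 to 2.01 CPM (WT) and 2.48 to 4.5 CPM (KO). The log2 fold change was 0.78 (SE 0.15, edgeR adjusted p = 0.00108) under basal conditions and 0.91 (SE 0.15, adjusted p = 0.0045) with cytokines, opposite in sign to *Tgm1*, *Tgm3* and *Tgm5*. *Tchhl1* was lower in KO cells with cytokines, with -0.87 (SE 0.23, adjusted p = 0.0638), with ranges of 7.25 to 15.9 CPM (WT) and 4.15 to 11.2 CPM (KO).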

How the data were processed

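RNA of the 26 cultures was sequenced in paired reads from a strand-specific kit. Per the labels and methods, the authors aligned the reads to mm39 with STAR 2.7.10b and counted them per gene with featureCounts 2.0.6 and GENCODE vM31. The deposited raw counts for 56738 symbols carry no normalization, and the deposited log2 values, which are size-factor-normalized counts plus 1 in log2 form, served as an alternative only. Even numbers made up 63.0% to 70.6% of the counts above 0 in each library, so both reads of a pair may have been counted. How reads with several positions were counted is not given in the sources used here. Positions, exon lengths and promoter windows were taken from GRCm39 and GENCODE vM39.

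The test was edgeR 4.0.16 under R 4.3.3 (TMM factors, quasi-likelihood fit of the 4 groups over all 26 libraries, genes with a mean size-factor-normalized count over 10, Benjamini-Hochberg adjustment over 16893 genes). A gene was called at an adjusted p under 0.1 and a fold over 1.5, the thresholds of the study. Log2 CPM used a prior count of 1. SEs were derived from the fold change and its F statistic, and 95% intervals are the fold change ± 1.96 SE. The exact permutation test over 5 and 8 mice (1287 splits) cannot go below p = 0.000777. At 42072745 to 78102858 counts per library, libraries of a group differed by more than counting error over all genes tested (chi-square per degree of freedom at least 7.22). This was not computed for single genes.

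The replicate number names the mouse in both treatments, so it pairs the libraries of a mouse. Over all genes tested, deviations of the 2 libraries of a mouse from their group means correlated between 0.001 and 0.254 (median 0.106, 13 pairs). This was not computed for the 10 genes alone. For most of them WT replicate 1 and KO replicate 8 lay at an end of their groups in both treatments. The main fit did not model the mouse. Alternatives were DESeq2 1.42.0, its size factors, no filter, a replicate block for the mouse (limma 3.58.1 voom for the genotype effects), a fit of only the groups compared, other thresholds, limma on the deposited log2 values, a sex score and each mouse left out. Voom without the block and another exon length of *Flg* were added after seeing the data. The code was tested on simulated data. Named were the 10 genes, from each of the lists (other family members, envelope proteins, filaggrin processing, cell layers, transcription factors, markers of other cells) up to 2 called genes per comparison with the largest change and a mean normalized count over 100, *Krt1*, *Krt10*, *Krt5*, *Krt14*, *Pla2g4d*, and the 5 most alike genes. *Tgm6*, *Crnn*, *Tchhl1*, *Tgm4*, *Tgm7* and *F13a1* were named after their values were seen. Members and lists were chosen with earlier results of these data known. A gene that this rule names is not reported here.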

Additional observations from a re-analysis of the deposited data

Results flagged for a closer look

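Of 40 groups of 5 or 8 libraries examined, 9 held a library whose distance from the others exceeded Dixon's 95% limit, where chance gives about 1 group in 20. All 9 were from WT replicate 1 or KO replicate 8. With cytokines WT replicate 1 was apart on the low side for *Hrnr* (42.25 CPM), *Rptn* (256.9 CPM) and *Ivl* (17.67 CPM), and under basal conditions for *Tgm3* (14.63 CPM). KO replicate 8 was apart on the high side with cytokines for *Flg* (32.87 CPM), *Hrnr* (72.94 CPM), *Rptn* (488.4 CPM) and *Tchh* (219.4 CPM), and under basal conditions for *Tgm3* (17.41 CPM). The genes vary together among libraries, so these are not 9 independent events.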

How the results depend on the processing

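With cytokines, 7 genes were called in WT cells under all alternatives. In KO cells there were 7 under all but no limit on the fold (8, *Tgm1* added) and mice left out (5 to 7, the 5 without KO replicate 8). Under basal conditions the count of 2 between genotypes became 1 with DESeq2, with only the groups compared and at an adjusted p under 0.05, and 3 with no limit on the fold (*Tgm1* added) and in voom with or without the block, and it ran from 0 to 4 with a mouse left out, with 0 without WT replicate 4, KO replicate 1 or KO replicate 2. With cytokines the count of 5 became 6 with only the groups compared (*Flg* and *Rptn* added, *Tgm3* lost), 4 with no filter (*Tgm3* lost), 3 with the mouse as a replicate block in voom, 2 in voom without the block (an alternative chosen after seeing the data) and 0 at an adjusted p under 0.05, and it ran from 0 to 8 with a mouse left out. The interaction count of 0 became 1 with the replicate block (*Lor*, adjusted p = 0.0969, between 0.435 and 0.87 under the other alternatives). Voom, with or without the block, added *Flg2* under basal conditions and lost *Flg2*, *Lor* and *Tgm3* with cytokines. Within voom the block added *Rptn* with cytokines and changed no other call between genotypes. For the cytokine effects and the interaction the block was a term for each mouse in edgeR, which changed no call but that of *Lor* in the interaction. The causes were not tested. The 4 comparisons of groups kept the direction of each gene under all alternatives. The within-mouse difference of *Lor* ran from -0.77 to -0.50 with a mouse left out, and its exact p rose over 0.05 without WT replicate 3 (-0.50) or WT replicate 5 (-0.55). Differences in response near 0 changed sign. For *Ivl* the interaction of -0.01 became 0.004 with no filter, 0.041 with the replicate block, 0.040 on the deposited log2 values and 0.032, 0.101, 0.029, 0.081 or 0.201 without WT replicate 1, 3 or 4 or KO replicate 7 or 8 (range with a mouse left out -0.152 to 0.201). *Tgm3* (0.01) became -0.041, -0.031 and -0.033 without WT replicate 2 or 5 or KO replicate 7 (range -0.041 to 0.084), and *Tchh* (-0.03) became 0.025 and 0.019 without WT replicate 3 or KO replicate 7 (range -0.06 to 0.025). Within mice, *Tchh* (-0.03) became 0.028 and 0.017 and *Tgm3* (0.02) became -0.033, -0.020 and -0.025 in the same fits, and *Ivl* (0.04) became -0.084, -0.004, -0.046, -0.005, -0.011 and 0 without WT replicate 2 or 5 or KO replicate 1, 2, 5 or 6. The ranges here were -0.053 to 0.028 for *Tchh*, -0.033 to 0.087 for *Tgm3* and -0.084 to 0.192 for *Ivl*. Leaving the interaction to only the groups compared was not possible, as it needs all 4. The part of the counting error was not estimated for single genes. *Flg2* was near 1 CPM in KO cells with cytokines, with counts of 34 to 126 per library.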

Other observations

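Genes beside the 10 that act in the same layers also changed with cytokines. Of 41 other envelope genes, 16 rose and 4 fell in WT, and 15 rose and 15 fell in KO cells. *Lce3a* rose by 7.51 in WT and by 7.61 in KO cells on the log2 scale (edgeR, adjusted p = 8.83e-14 and 3.45e-16), *Sprr2f* by 7.46 in WT and *Lce3b* by 7.31 in KO cells. The interaction called none of the 41, so a difference between these counts was not shown for single genes. With cytokines 4 of the 41 were called lower and 0 higher in KO than in WT cells, among them *Lce1k* (-1.24, edgeR adjusted p = 0.0696) and *Sprr2b* (-0.79, adjusted p = 0.0322). Under basal conditions 1 was called lower, *Sprr2a3* (-0.59, adjusted p = 0.00572).

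Of 14 tested genes for filaggrin processing, 4 fell and 2 rose with cytokines in WT, and 5 fell and 1 rose in KO cells. *Klk5*, a protease of the outer epidermis, had -1.11 and -1.43, and *Padi4*, which converts arginine to citrulline, had -0.996 and -1.07 (edgeR adjusted p of 0.00485 or less). None of the 14 was called between genotypes. Of 9 tested spinous layer genes, 7 were called lower with cytokines in each genotype. In KO against WT cells 4 were called lower under basal conditions, among them *Dsg1a* (-0.82, edgeR adjusted p = 0.00362) and *Krt1* (-0.75, adjusted p = 0.00776), and 6 with cytokines. Of 10 basal layer genes 1 fell with cytokines in each genotype, *Krt15* (-2.25 in WT and -1.76 in KO cells), and *Itga3* rose in KO cells (0.60). None of the 10 was called between genotypes. On p alone 3 passed with a higher level in KO cells under basal conditions and 2 with cytokines. Of 15 transcription factors of differentiation 2 rose and 2 fell in each genotype. *Prdm1* rose by 1.34 and 1.32. None of the 15 was called between genotypes.

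Of 6 melanocyte markers 1 fell in WT and 3 in KO cells with cytokines, *Tyr* (-0.89 and -1.17) and, in KO cells, *Pmel* (-0.996) among them. Of 5 tested fibroblast markers 1 fell in each genotype. Of 5 endothelial markers only 2 passed the filter. Both rose in each genotype, *Pecam1* by 1.68 and 0.59, and *Pecam1* was higher in KO cells under basal conditions (0.95, edgeR adjusted p = 0.0195). No counts were found for 2 of the 5 in either WT group and in basal KO cells, and for 1 in KO cells with cytokines. All 5 together summed to 1.37 to 5.95 CPM per library. The 2 tested immune cell markers were not called in any comparison.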
